A study of Mus musculus with 9 samples.

Results

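The contractile and focal adhesion cytoskeleton was followed through 42 genes that encode smooth muscle type actomyosin, the serum response factor SRF with its cofactors, and the linkers that join actin bundles to focal adhesions. The genes are a list of symbols, by a rule that uses no counts but drawn up with earlier results of these data known, out of the 23337 symbols of the count table, and 41 of them had at least 1 count. Myh11, the smooth muscle myosin heavy chain, had 0 counts in every library. RNA came from immortalized Cebpb-ko MEFs, mouse embryonic fibroblasts of a C57BL/6 x 129 background that lack C/EBPβ in every group, the controls included. The EV group carried the empty vector, the LAP group expressed C/EBPβ-LAP and the LIP group expressed C/EBPβ-LIP, the long and the short isoform made from the same mRNA, from stably transfected plasmids with the rat sequence under Zeocin selection. There were 3 libraries per group, and neither the labels nor the methods say whether these came from separate cultures or whether a line was a clone, so p-values measure only the spread between these libraries.

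In cells, bundles of actin and non-muscle myosin pull on the matrix through focal adhesions, in which talin and vinculin connect integrins to actin. Fibroblasts that carry more tension, as in wound tissue, build thicker bundles and add smooth muscle type proteins such as α-smooth muscle actin (Acta2), SM22α (Tagln) and calponin (Cnn1). Many of these genes are targets of SRF, which binds CArG boxes together with the cofactors MRTF-A (Mkl1) and MRTF-B (Mkl2), and these cofactors enter the nucleus when free actin monomer is used up.

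Sequence upstream of the members is shown because the CArG box is the letter pattern by which SRF binds, and the genes below differ in whether it lies next to their start. RefSeq promoters on GRCm38.p6, which reach from 250 bases before to 50 bases after a start site, were found for 37 of the 42 genes, with 48 windows in all, and not for Actg2, Tagln, Csrp2, Pxn and Myh11. A CArG box, searched on both strands, lay in 5 of the 48 windows, from 5 members (Cnn2, Myl6, Myl9, Srf and Vcl), and 1.63% of all 32851 windows hold one. The boxes are printed in capitals, 5′ to 3′ on the strand of the gene, from 30 or 60 bases of promoter.

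Cnn2, chr10:79988519-79988578, plus strand: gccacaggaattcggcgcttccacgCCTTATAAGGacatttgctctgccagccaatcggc
Myl6, chr10:128493040-128493069, minus strand: gctcttacttCCTTATATGGgcaggaccta
Myl9, chr2:156775278-156775337, plus strand: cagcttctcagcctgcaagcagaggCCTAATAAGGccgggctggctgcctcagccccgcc
Srf, chr17:46556200-46556259, minus strand: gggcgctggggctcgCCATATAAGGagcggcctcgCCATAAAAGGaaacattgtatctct
Vcl, chr14:20929148-20929207, plus strand: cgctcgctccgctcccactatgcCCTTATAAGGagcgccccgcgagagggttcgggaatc

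Counted from the start site of the window, the boxes began 56 bases before it in Cnn2, 50 in Myl6, 161 in Myl9 and 227 in Vcl. Srf had boxes 82 and 62 bases before that site. The boxes of Srf and Myl6 lie inside the annotated span of the gene, which reaches further upstream than the site used. Acta2 had no complete box in its window but had 2 CArG-like stretches, in which 1 of the 6 inner bases is C or G, a pattern that was added after the data had been seen. It lay in 7 of the 48 windows, from 6 members (Acta2, Flnc, Lpp, Mkl1, Myl9 and Tpm3), and in 8.50% of all windows. The stretches of Acta2 began 84 and 34 bases before the start site of the window, also inside the annotated span of the gene, and are printed in capitals.

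Acta2, chr19:34255438-34255467, minus strand: gtgctgaggtCCCTATATGGttgtgttaga
Acta2, chr19:34255388-34255417, minus strand: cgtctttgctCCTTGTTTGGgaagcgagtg

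Ankrd1, a target of YAP and TEAD factors, held the TEAD motif GGAATG 210 and 123 bases before its start, here in capitals. That motif lay in 16 of the 48 windows, from 15 members, and in 14.7% of all windows.

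Ankrd1, chr19:36120037-36120066, minus strand: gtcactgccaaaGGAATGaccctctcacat
Ankrd1, chr19:36119950-36119979, minus strand: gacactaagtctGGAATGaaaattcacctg

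The C/EBP motif TTGCNNAA lay in 3 of the 48 windows, from 3 members (Actn1, Csrp1 and Myl6), and in 10.8% of all windows. The AP-1 motif TGANTCA lay in 5 of the 48 windows, from 5 members (Actn4, Cald1, Mkl2, Mylk and Zyx), and in 7.81% of all windows. These are matches of letters within short windows and not measured binding sites.

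Depth was similar across the groups, with 24839139 to 33522082 reads counted on genes per library. Levels are given as CPM, counts scaled to a common library size by TMM over the 9 libraries. The floor used here, 3 counts, stands for 0.0895 to 0.121 CPM by total counts before TMM, a limit that covers counting error only. Of 12 fibroblast markers, 10 had a mean of at least 1 CPM. The summed level of these markers was 30309 to 35609 CPM in EV, 25471 to 38430 CPM in LAP and 13669 to 25192 CPM in LIP, so that LIP lay below the other groups. Of 10 smooth muscle markers, 8 had a mean of at least 1 CPM, with Acta2, Tagln and Actg2 the highest. Myh11 was at 0 and Myocd, the smooth muscle cofactor of SRF, had 9 counts in all. Myod1 and Myf5 of skeletal muscle, Myh6 and Tnnt2 of heart, Pecam1 and Emcn of endothelium and Ptprc and Itgam of blood cells were at 0 in every library. Other markers in these lists had counts, with Myl7 of heart at 6.00 to 14.8 CPM, Cd68 of macrophages at 2.51 to 8.19 CPM, Kdr of endothelium at 1.02 to 2.80 CPM and Mylpf of skeletal muscle at 0.740 to 1.51 CPM, and 6 pericyte markers summed to 86.0 to 191 CPM. Vegfa, which many cell types express, also had 0 counts in every library, so a count of 0 is not read as absence of the RNA. Epithelial markers, mostly Krt8 and Krt14, summed to 485 to 1004 CPM with overlapping groups. In RNA from whole cultures, fewer cells of a type and less RNA per cell cannot be told apart, and the part of the lower fibroblast markers in the differences below was not tested. Mouse Cebpb had 25.2 to 33.3 CPM over all libraries, EV included, in cells described as lacking C/EBPβ. The plasmids carry the rat sequence, and how many of its reads were counted on the mouse gene was not tested. These counts therefore do not check which isoform a library expressed.

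Per kilobase of annotated exon, the highest mean levels over the 9 libraries belonged to Vim, the intermediate filament protein of mesenchymal cells, with 947 CPM, to Tpm4, a tropomyosin of non-muscle cells, with 688 CPM, and to Acta2 with 600 CPM. Tagln followed with 387 CPM and Flna, which crosslinks actin into networks, with 350 CPM per kilobase. The smooth muscle type genes Actg2, Cnn1 and Lmod1 were far lower, at 47.3, 9.06 and 4.46 CPM per kilobase. The most abundant myosin heavy chains among the listed genes were the non-muscle forms Myh9, at 176 CPM, and Myh10, at 67.1 CPM per kilobase.

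Of the 42 genes, 11 had a mean under 3 CPM (Smtn, Myh11, Tpm1, Tpm3, Mkl2, Pxn, Lpp, Pgm5, Pdlim5, Synpo2 and Des). RefSeq lists at least 2 curated transcripts for 8 of these 11 genes and for 12 of the 31 others. Among all genes, the share under 3 CPM was 56.0% with 1 curated transcript and 53.0% with 4 or more. Pxn, which encodes the focal adhesion scaffold paxillin, and Tpm1 had 462 and 341 counts over all 9 libraries, against 352124 for Acta2. How reads that fit several transcripts were counted is not given in the sources used here, so these low counts are not read as low expression.

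The comparison of LIP with EV asks what the short isoform does in cells without any other C/EBPβ. Pgm5 was the 1 of 41 tested members with an adjusted p under 0.05, and it was lower in LIP. Across all 18203 genes tested, 0.396% had an adjusted p under 0.05 (Benjamini-Hochberg, edgeR quasi-likelihood test). At an unadjusted p under 0.05 there were 5 of 41 members, namely Lmod1, Pgm5, Csrp2 and Cav1 with lower and Ankrd1 with higher values in LIP, where the share of all genes was 11.0%. Groups did not overlap for 3 members (Pgm5, Csrp2 and Cav1), against 15.6% of all genes. The median log2 fold change was -0.07 over the members, with 30 of 41 below 0, and 0.04 over all genes, of which 46.0% were below 0. Without LIP library 1, 5 members passed, adding Acta2, Actg2, Cnn1 and Lmod1, and 1.56% of all genes passed. In that library the added genes lay within the EV range and were the highest of LIP, so its omission by itself lowers LIP. Without LIP library 3 there were 2 members (Pgm5 and Ankrd1), where 2.06% of all genes passed. Omitting any other library left Pgm5 alone.

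In the comparison of LAP with EV, none of the 41 tested members had an adjusted p under 0.05 by edgeR's quasi-likelihood test, and neither had any of 76 further genes of the pathway, where the share of all 18156 genes was 0.0606%. At an unadjusted p under 0.05 there were 2 members, Myl9 with higher and Pgm5 with lower values in LAP, where the share of all genes was 3.27%. Groups did not overlap for 4 members, of which Tagln2, Smtn and Pgm5 had lower and Synpo2 higher values, against 7.57% of all genes. The median log2 fold change was -0.08 over the members and 0.02 over all genes. LIP and LAP were compared with the same EV libraries, so these comparisons are not independent of each other.

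In the direct comparison of the isoforms, 0 of 41 tested members had an adjusted p under 0.05 by edgeR's quasi-likelihood test, where the share of all 18166 genes was 1.05%. At an unadjusted p under 0.05 there were 7 members, against 9.28% of all genes. They were Cnn1, Lmod1, Myl9, Pgm5, Csrp2 and Cav1 with lower and Ankrd1 with higher values in LIP. Without LIP library 1 or LIP library 3 there were 3 members with an adjusted p under 0.05 (Cnn1, Lmod1 and Myl9). Without LAP library 3 there were 4 (these and Csrp2). Each was lower in LIP, and the shares of all genes were 0.815%, 2.52% and 2.28% in that order. Omitting any other library gave 0 members. Groups did not overlap for 5 members, of which Pgm5, Csrp2 and Cav1 had lower and Smtn and Lpp higher values in LIP, against 12.8% of all genes. LIP and LAP libraries of the same number deviated together from their group means, and when the replicate number entered the model 8 members passed, of which Acta2, Actg2, Cnn1, Lmod1, Myl9, Pgm5 and Csrp2 were lower and Ankrd1 was higher in LIP. With the number in the model the share of all genes was 6.51%. With 3 pairs of libraries, the fit takes the variance of a gene partly from other genes. An SE or p with the number therefore does not measure the spread between the pairs of that gene alone. In LAP against EV the model with the number called 1 member, Pgm5, where the share of all genes was 0.297%.

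**Figure D1:**
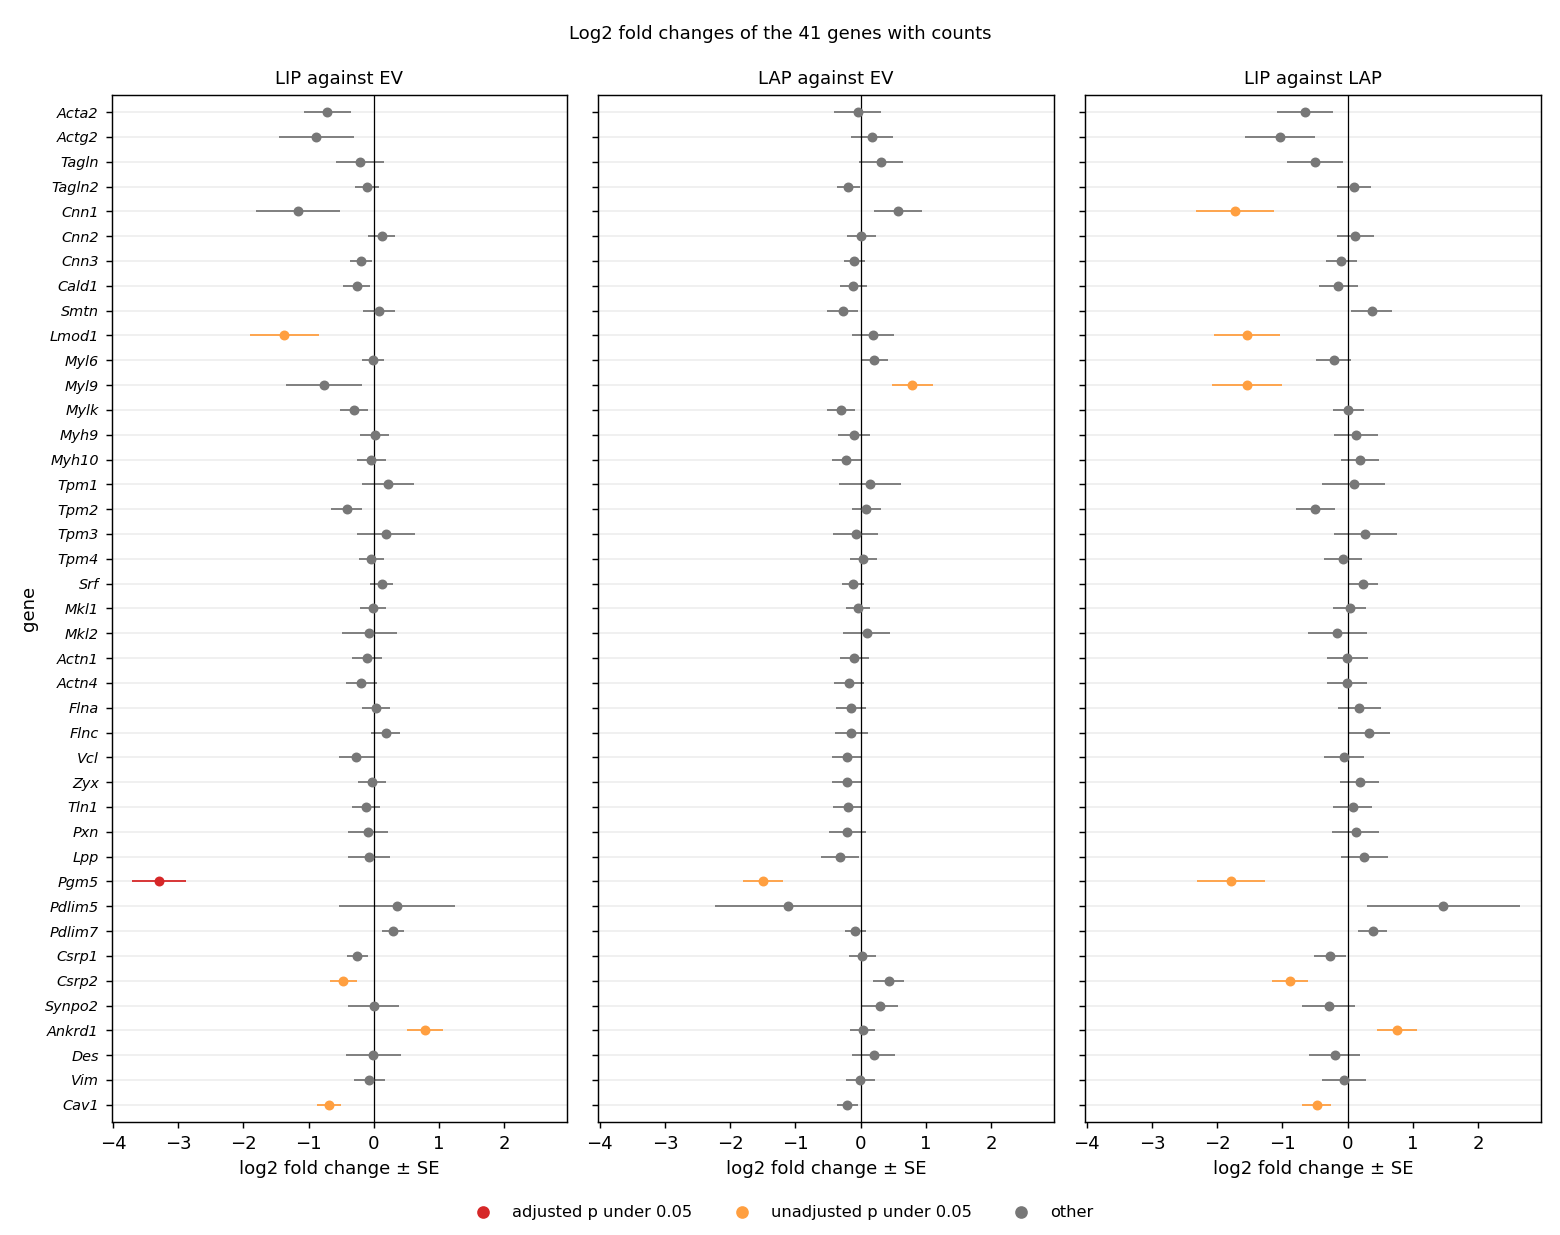
Log2 fold change of the 41 members with counts in the 3 comparisons, with genes in rows by role, points for the estimate of edgeR's quasi-likelihood fit without the replicate number and bars for its SE. Pgm5 in LIP against EV, at -3.29, is the only red point, that is an adjusted p under 0.05, and most other members lie close to 0.

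The actins. Acta2, α-smooth muscle actin, had 1852, 1643 and 1096 CPM in EV libraries 1, 2 and 3. In LAP it had 2307, 1534 and 633 CPM and in LIP 1592, 706 and 500 CPM, in the same order of libraries. The groups overlapped, and library 3 was the lowest of each. The log2 difference of LIP from LAP was -0.66 ± 0.43 (SE, adjusted p = 0.740 by edgeR's quasi-likelihood test) and -0.65 ± 0.18 with the replicate number (adjusted p = 0.0117), with lower values in LIP in 3 of 3 pairs of the same number.

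Actg2, the γ-actin of enteric smooth muscle, had 103, 75.1 and 69.1 CPM in EV, 148, 90.5 and 41.9 CPM in LAP and 101, 23.9 and 9.98 CPM in LIP. LIP library 1 was at the level of EV, and LIP libraries 2 and 3 lay below every library of the other groups. The log2 difference of LIP from LAP was -1.04 ± 0.54 (SE, adjusted p = 0.593 by edgeR) and -1.49 ± 0.20 with the replicate number (adjusted p = 2.79e-09). This SE and p with the number rest partly on the variance of other genes, and the ratio of LIP to LAP differed widely between pairs. Acta2, Actg2, Acta1 and Actc1 encode nearly identical proteins. How reads of 50 bases that fit more than 1 of these genes were counted is not given, so the split of such reads is uncertain. Acta1, the skeletal form, was at 0.129 to 0.816 CPM, with 113 counts over all 9 libraries, and Actc1 had 6 counts.

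Genes of the thin filament. Tagln, an early marker of smooth muscle that crosslinks actin, had 856, 801 and 563 CPM in EV, 1068, 1331 and 386 CPM in LAP and 1032, 634 and 259 CPM in LIP. Its values overlapped among all groups. Of its annotated exon bases, 67.9% are shared with genes on the opposite strand (Pcsk7 and Gm48529), and reads of such pairs cannot be told apart because the kit does not mark strand.

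Cnn1, the smooth muscle calponin that slows myosin on actin, had 34.4, 23.9 and 17.4 CPM in EV. It had 62.9, 34.9 and 15.6 CPM in LAP and 26.2, 5.96 and 1.81 CPM in LIP. LIP libraries 2 and 3 were below every other library, and LIP library 1 lay within the EV range. LIP differed from LAP by a log2 difference of -1.73 ± 0.60 (SE, adjusted p = 0.269 by edgeR) and -2.22 ± 0.22 with the replicate number (adjusted p = 3.50e-14). By number, the log2 ratio of LIP to LAP was -1.27, -2.55 and -3.11. These 3 ratios differ widely, and the SE and p with the number rest partly on the variance of other genes.

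Lmod1, leiomodin 1, which nucleates actin filaments in smooth muscle, had 26.7, 21.6 and 14.4 CPM in EV, 38.3, 20.7 and 12.5 CPM in LAP and 17.6, 4.10 and 2.75 CPM in LIP. Only LIP library 1 reached the range of the other groups. Against EV the log2 difference was -1.37 ± 0.53 (SE, unadjusted p = 0.0225, adjusted p = 0.354 by edgeR). Against LAP it was -1.54 ± 0.50 (SE, adjusted p = 0.213 by edgeR) and -1.84 ± 0.22 with the replicate number (adjusted p = 5.62e-11). The pairs differed in their ratio of LIP to LAP, and the SE and p with the number rest partly on other genes. The more widely expressed genes of the thin filament varied less. Cnn2 lay between 360 and 671 CPM, Cnn3 between 294 and 426 CPM, Cald1 (caldesmon) between 1096 and 1766 CPM, Tagln2 between 567 and 773 CPM and Smtn (smoothelin) between 2.0 and 3.06 CPM. None of these 5 genes had an unadjusted p under 0.05 in any of the 3 comparisons.

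**Figure D2:**
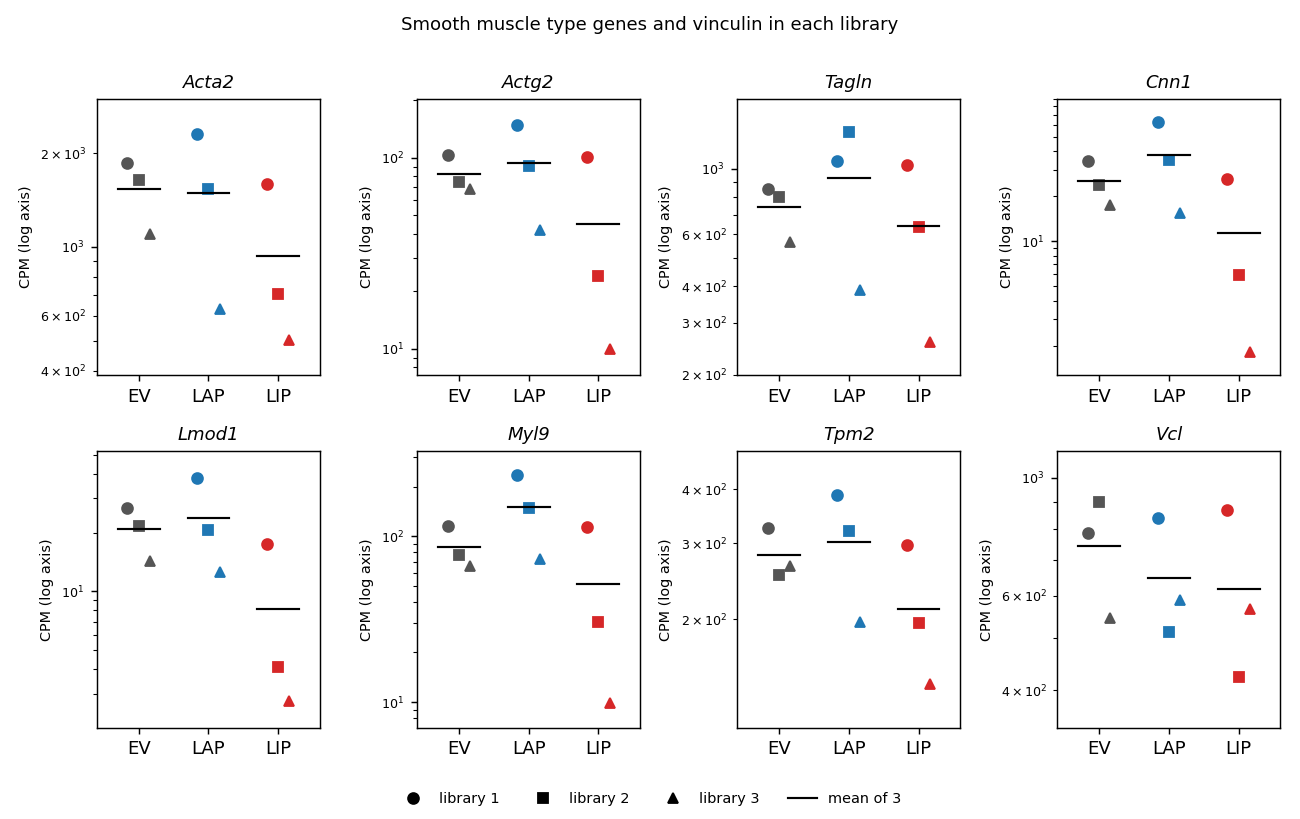
CPM on log axes in each library of EV, LAP and LIP for 7 smooth muscle type genes and for vinculin (Vcl), with a symbol for the library number and a line at the mean of the 3 libraries. For Actg2, Cnn1, Lmod1 and Myl9 LIP libraries 2 and 3 lie below all EV and LAP libraries, while LIP library 1 lies within the EV range, and Vcl shows no such order.

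Myosin chains. Myl9, the regulatory light chain of smooth muscle and non-muscle myosin, had 116, 77.3 and 66.7 CPM in EV, 233, 148 and 73.1 CPM in LAP and 113, 30.6 and 9.85 CPM in LIP. Within LIP the values spanned 11.5-fold. LAP differed from EV by a log2 fold of 0.79 ± 0.32 (SE, unadjusted p = 0.0252, adjusted p = 0.918 by edgeR). Without LAP library 3 the log2 difference was 1.12 and the adjusted p 0.0288 by edgeR. That library was the lowest of its group, so its omission by itself raises the difference. Omitting any other library gave an adjusted p of 0.216 to 0.999 by edgeR. LIP differed from LAP by -1.54 ± 0.54 (SE, adjusted p = 0.283 by edgeR) and -2.04 ± 0.20 with the replicate number (adjusted p = 6.46e-14). The ratio of LIP to LAP differed widely between the pairs. The SE and p with the number rest partly on the variance of other genes.

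Mylk, the kinase that phosphorylates this light chain, had 49.3, 37.1 and 29.0 CPM in EV, 39.8, 29.6 and 24.7 CPM in LAP and 33.2, 35.9 and 24.7 CPM in LIP, with overlap throughout. Myh9 and Myh10, the heavy chains of non-muscle myosin IIA and IIB, lay between 1452 and 2806 CPM and between 501 and 875 CPM. Myl6, the essential light chain, lay between 553 and 955 CPM. No unadjusted p of these 4 genes was under 0.05 in any comparison.

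Tropomyosins stabilize actin filaments. Tpm2 had 326, 254 and 266 CPM in EV, 389, 320 and 198 CPM in LAP and 298, 196 and 142 CPM in LIP. The groups overlapped, and 2 of 3 LIP libraries lay below the range of EV. Tpm1 had few counts, with 1.56, 1.29 and 0.674 CPM in EV, 1.51, 2.05 and 0.333 CPM in LAP and 1.14, 1.97 and 0.969 CPM in LIP. Tpm3 lay between 0.367 and 1.18 CPM and Tpm4 between 1301 and 1845 CPM. The 4 tropomyosin genes share stretches of sequence, so the split of reads among them is uncertain, and none had an unadjusted p under 0.05.

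SRF and its cofactors. Srf, whose promoter holds 2 CArG boxes, had 102, 92.3 and 85.7 CPM in EV, 104, 72.3 and 84.6 CPM in LAP and 119, 106 and 80.2 CPM in LIP. Mkl1 had 13.2, 11.5 and 11.5 CPM in EV, 13.2, 9.88 and 12.3 CPM in LAP and 13.3, 12.7 and 9.75 CPM in LIP. Mkl2 had 0.684, 0.406 and 0.674 CPM in EV, 0.678, 0.755 and 0.481 CPM in LAP and 0.694, 0.655 and 0.355 CPM in LIP. For all 3 genes the groups overlapped and no unadjusted p was under 0.05. These are levels of mRNA, and the place of the cofactors in the cell was not measured. Of the 5 members with a CArG box in the window, 1 (Myl9) passed the test of LIP against LAP with the replicate number, where the share of all genes was 6.51%, while Cnn2, Myl6, Srf and Vcl did not.

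Actin crosslinkers. Flna had 2554 to 3901 CPM, with the lowest value in LAP library 2 and the highest in LIP library 1. Flnc, the muscle type filamin, had 1119, 843 and 1042 CPM in EV, 1037, 559 and 1134 CPM in LAP and 1420, 867 and 1117 CPM in LIP. Actn1 lay between 900.3 and 1585 CPM and Actn4, the other non-muscle α-actinin, had 1097, 1171 and 851 CPM in EV, 1198, 756 and 815 CPM in LAP and 1240, 699 and 790.3 CPM in LIP. None of the 4 genes had an unadjusted p under 0.05, and the log2 fold changes of LIP against EV ran from -0.19 to 0.18.

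Focal adhesion linkers. Pgm5, which encodes aciculin, an enzyme-like protein without known activity that sits at adherens type junctions of muscle, was counted 72, 40 and 77 times in EV, 22, 25 and 15 times in LAP and 7, 6 and 4 times in LIP. That is 2.24, 1.48 and 2.26 CPM in EV, 0.678, 0.898 and 0.555 CPM in LAP and 0.286, 0.197 and 0.129 CPM in LIP. The 3 groups did not overlap with each other, with EV highest and LIP lowest. Pgm5 lies on the minus strand of chromosome 19 from 24678261 to 24861842 of GRCm38.p6.

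Against EV, Pgm5 was 9.79-fold lower in LIP, a log2 difference of -3.29 ± 0.41 (SE, adjusted p = 0.00650 by edgeR), and the p of the two-sided exact permutation test was 0.1, the smallest that 3 libraries against 3 allow. It was lower in LAP by 2.82-fold, a log2 difference of -1.50 ± 0.30 (SE, adjusted p = 0.191 by edgeR), and, with the number in the model, by -1.49 ± 0.29 (adjusted p = 0.0260). LIP was below LAP by -1.78 ± 0.52 on the log2 scale (SE, adjusted p = 0.132 by edgeR), and by the same log2 difference with the replicate number (adjusted p = 0.0184). The counts are low, and with filterByExpr, which removes genes with few counts from the test, the adjusted p for LIP against EV was 0.0561.

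Vcl, vinculin, had 788, 900.1 and 547 CPM in EV, 839.9, 513 and 591 CPM in LAP and 869, 424 and 566 CPM in LIP, and 25.5% of its annotated exon bases are shared with Ap3m1 on the opposite strand. Its groups overlapped, with library 2 highest in EV and lowest in LAP and LIP. Zyx (zyxin), Tln1 (talin 1), Pxn and Lpp ranged from 649 to 1288, from 541 to 1006, from 1.33 to 2.26 and from 1.01 to 1.73 CPM. Thus Pgm5 was the 1 of 6 linkers with an adjusted p under 0.05 in LIP against EV by edgeR, where the share of all genes was 0.396%. The other 5 had log2 fold changes between -0.27 and -0.02 and are not read as unchanged.

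Adaptors. Ankrd1, a muscle ankyrin repeat protein that responds to stretch, had 438, 514 and 342 CPM in EV, 465, 410.3 and 455 CPM in LAP and 864, 952 and 411 CPM in LIP. LIP libraries 1 and 2 lay above every library of EV and LAP, and LIP library 3 lay within their range. LIP differed from EV by 0.78 ± 0.28 on the log2 scale (SE, unadjusted p = 0.0160, adjusted p = 0.314 by edgeR). Without LIP library 3, the lowest of its group, the log2 difference was 1.08 (adjusted p = 0.0213 by edgeR). Omitting any other library gave an adjusted p of 0.374 to 0.651 by edgeR. Against LAP the log2 difference was 0.76 ± 0.30 (SE, adjusted p = 0.382 by edgeR) and 0.68 ± 0.19 with the replicate number (adjusted p = 0.0136). In library 3 LIP was below LAP.

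Csrp2, a LIM protein of smooth muscle, had 16.1, 17.9 and 20.2 CPM in EV, 20.7, 36.4 and 16.7 CPM in LAP and 15.4, 13.6 and 10.3 CPM in LIP. All LIP libraries were below all others, by a small margin in library 1. The log2 difference was -0.47 ± 0.21 from EV (SE, unadjusted p = 0.0419, adjusted p = 0.436 by edgeR). From LAP it was -0.88 ± 0.28 (SE, adjusted p = 0.196 by edgeR), and -0.83 ± 0.20 with the replicate number (adjusted p = 0.00222). Csrp1 lay between 204 and 354 CPM, Pdlim7 between 71.6 and 128 CPM and Synpo2 between 0.711 and 1.57 CPM, and Pdlim5 had 13 counts in all 9 libraries together. None of these 4 genes had an unadjusted p under 0.05.

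Intermediate filaments and caveolae. Des, desmin of muscle, had 0.809, 1.03 and 1.85 CPM in EV, 1.29, 1.4 and 1.59 CPM in LAP and 0.776, 1.05 and 1.84 CPM in LIP. Vim had 4155, 4980 and 4533 CPM in EV, 4783, 3993 and 4952 CPM in LAP and 5092, 3358 and 4595 CPM in LIP. Cav1, caveolin 1, which coats caveolae, had 25.9, 31.8 and 23.7 CPM in EV, 23.2, 24.2 and 23.8 CPM in LAP and 17.2, 16.1 and 17.3 CPM in LIP. All LIP libraries were below all others and close together. The log2 difference of LIP was -0.69 ± 0.18 from EV (SE, unadjusted p = 0.00218, adjusted p = 0.134 by edgeR) and -0.47 ± 0.22 from LAP (SE, unadjusted p = 0.0458, adjusted p = 0.524 by edgeR).

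**Figure D3:**
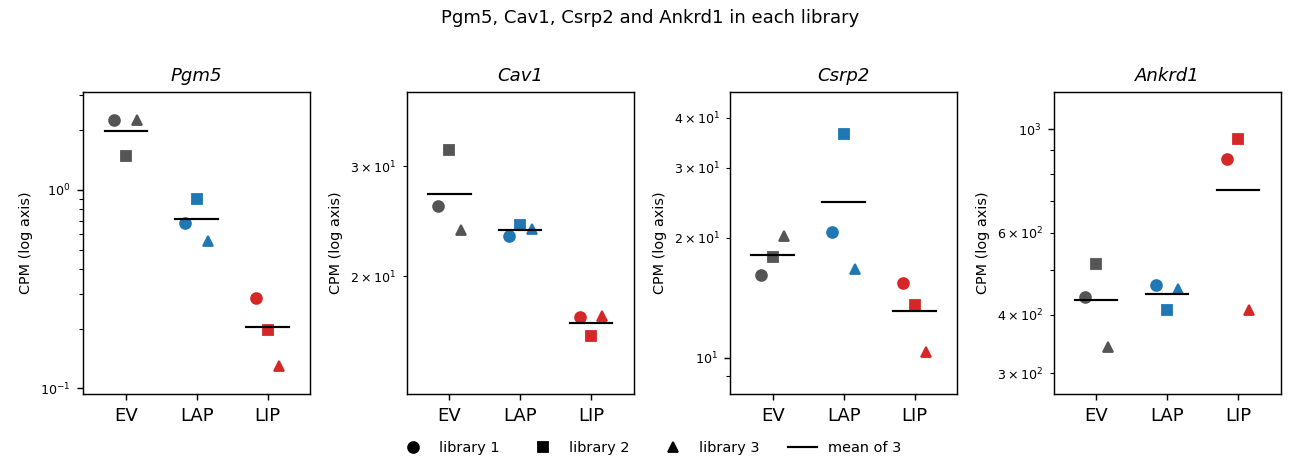
CPM on log axes in each library for Pgm5, Cav1, Csrp2 and Ankrd1, with a symbol for the library number and a line at the mean of the 3 libraries. For Pgm5, Cav1 and Csrp2 all LIP libraries lie below all EV and LAP libraries, and for Ankrd1 LIP libraries 1 and 2 lie above them.

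The smooth muscle type genes varied widely between libraries of the same group. For the 11535 genes whose mean count was 20 or more, the SD of log2(CPM + 0.1) between libraries of the same group had a median of 0.266 and a 95th percentile of 0.671. The median over 38 members was 0.339, and 7 of them were above that percentile. These were Cnn1 with an SD of 1.27, Myl9 with 1.15, Actg2 with 1.12, Lmod1 with 0.961, Tpm1 with 0.836, Tagln with 0.824 and Acta2 with 0.775. Cav1 had the smallest SD of the 38, 0.131.

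**Figure D4:**
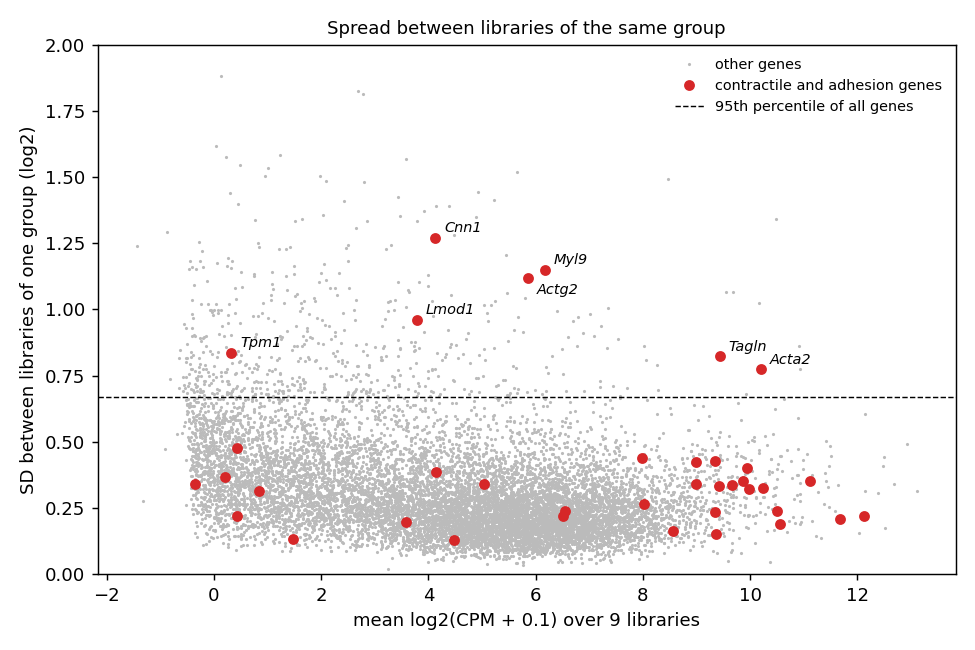
Within-group SD of log2(CPM + 0.1) against the mean over 9 libraries for 11535 genes, with 38 members in red and a dashed line at the 95th percentile of all genes, 0.671. The 7 named members lie above the line and the other 31 members below it.

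Library 3 was the lowest in each of the 3 groups for 11 of 38 members, which is 28.9%, and for 11.0% of all genes. These were Acta2, Actg2, Tagln, Cnn1, Cnn2, Lmod1, Myl6, Myl9, Mylk, Tpm1 and Tpm4. The members whose log2 CPM was most like that of Acta2 over the 9 libraries were Tpm2 with a Pearson r of 0.953, Actg2 with 0.931, Lmod1 with 0.907, Cnn1 with 0.901 and Tagln with 0.883. These libraries share groups and numbers, so the values of r are a description and carry no test. What the number stands for is not stated in the labels, and its part in the spread was not tested.

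Among 76 further genes of the pathway (among them other actins and actin turnover, other focal adhesion genes, other SRF partners and caveolar genes), 0 had an adjusted p under 0.05 by edgeR's quasi-likelihood test in LIP against EV and 7 an unadjusted p under 0.05, 2 with higher and 5 with lower values in LIP. That is 9.21% of the 76 genes, against 11.0% of all genes. Lowest by p were Tln2 (talin 2) with 98.4, 84.9 and 132 CPM in EV and 69.8, 55.2 and 66.3 CPM in LIP, Limk1, a kinase that inactivates cofilin, with 66.0 to 66.9 and 35.6 to 48.1 CPM, and Diap3, a formin, with 95.6 to 118 and 59.1 to 80.3 CPM. Capg, which caps filament ends, followed with 5.44 to 7.79 and 3.47 to 4.62 CPM, and Prkcdbp (cavin 3) with 43.1 to 48.5 and 27.8 to 40.4 CPM. None of these 5 genes, which were picked by p, overlapped between EV and LIP. Over the whole list the groups did not overlap for 9 of the 76 genes, which is 11.8% against 15.6% of all genes. Of the genes with higher values in LIP, Tmsb4x, which binds free actin monomer, had 1149 to 1297 CPM in EV and 1433, 3387 and 1458 CPM in LIP, while Myh14, Acta1, Tmsb10 and Pdlim1 overlapped with EV. In LAP Tmsb4x had 1105, 3414 and 1236 CPM, so that library 2 was as high there as in LIP.

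In LIP against LAP, 0 of 75 tested genes of the pathway passed by edgeR's quasi-likelihood test and 5 had an unadjusted p under 0.05, which is 6.67% against 9.28% of all genes. With the replicate number 4 passed, which is 5.33% against 6.51% of all genes. Of these 4, Tln2, Pdlim4 and Cav2 (caveolin 2) were lower and Myh14 was higher in LIP. In LAP against EV, 4 of 76 genes had an unadjusted p under 0.05, which is 5.26% against 3.27% of all genes.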

How the data were processed

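Total RNA (RNeasy Plus) was made into TruSeq RNA v2 libraries and sequenced as single reads of 50 bases. The authors used bcl2fastq 1.8.3, TopHat 1.4.1 and HTSeq 0.5.4, and deposited raw counts per gene symbol without normalization. The build was written as GRCh38/mm10 and read here as mouse mm10. The strand setting and the handling of reads with several alignments are not given in the sources used here. Totals of 24839139 to 33522082 counts per library set the precision. Of 23337 symbols, 23085 were matched to RefSeq on GRCm38.p6.

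Each comparison used its 6 libraries, every gene with at least 1 count, TMM and edgeR 4.0.16 (R 4.3.3) in the quasi-likelihood test with default options, Benjamini-Hochberg adjustment over all genes and a threshold of 0.05. SE is the log2 fold change over the square root of F. As alternatives served DESeq2 1.42.0, edgeR's exact test, robust estimation, scaling by DESeq2 size factors or by totals, filterByExpr, a minimum of 10 counts in every library, a fit of all 9 libraries, the replicate number as a block, omission of each library, an adjusted p under 0.01 and an unadjusted p. The test was first tried on simulated data. Of changes of 1 on the log2 scale it recovered 61.8% in LIP against EV, 74.5% in LAP against EV and 31.4% in LIP against LAP. Of changes of 2 it recovered 93.9% to 100%. The simulated spread followed the trend over all genes, and the smooth muscle type genes varied more than most genes. A member without a call is therefore not read as unchanged. The members and lists were chosen with earlier results of these data known. Values per library were given for members past the threshold with or without the number, the member of each role with the smallest p in LIP or LAP against EV, and 15 members named by hand.

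The labels number the libraries 1 to 3 in each group. Deviations from the group means correlated between libraries of the same number by 0.413 to 0.558 in LIP and LAP and by 0.210 to 0.524 in LAP and EV, so these numbers were taken as pairs. The limit was a correlation over 0.1 in each of the 3 pairs, and the pairs were chosen from these same data. In LIP and EV, 2 of 3 pairs passed that limit.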

Additional observations from a re-analysis of the deposited data

How the results depend on the processing

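For members in LIP against EV, DESeq2 called 2 (Pgm5 and Cav1), filterByExpr and the limit of 10 counts, which leaves Pgm5 out, called 0, and an unadjusted p under 0.05 gave 5. Leaving out 1 library each gave 1 to 5 members, with 5 without LIP replicate 1 (Acta2, Actg2, Cnn1, Lmod1 and Pgm5) and 2 without LIP replicate 3 (Pgm5 and Ankrd1). With the replicate block it was 5 (Actg2, Cnn1, Lmod1, Myl9 and Pgm5), where 2.57% of all genes were called. LIP and EV libraries 1, 2 and 3 correlated by number at 0.290, -0.121 and 0.231. They were not taken as pairs because library 2 fell below the limit of 0.1. Whether they share more than a number was not tested. Of the further pathway genes, 1 (Tln2) was called by the edgeR exact test and with the replicate block, and 7 at an unadjusted p.

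In LAP against EV, DESeq2, the edgeR exact test and the replicate block each called 1 member, Pgm5, an unadjusted p gave 2 members and 4 further genes, and leaving out a library gave 0 to 1, Myl9 without LAP replicate 3. In LIP against LAP, the replicate block called 8 members and 4 further genes, the fit of all 9 libraries 1 member (Pgm5) and an unadjusted p 7 members and 5 further genes. Leaving out a library gave 0 to 4 members (4 without LAP replicate 3, namely Cnn1, Lmod1, Myl9 and Csrp2, and 3 each without LIP replicate 1 and without LIP replicate 3, namely Cnn1, Lmod1 and Myl9) and 0 to 1 further genes (Pdlim4 without LIP replicate 3). The block changed no other call. The cause of these changes was not tested.

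For members, 19 log2 fold changes had an unadjusted p under 0.05, or an adjusted p under 0.05 with the replicate number. They were picked by p in these same data, so a stable direction was likely from the start. All kept their direction under all 283 alternatives, with 250 on the same side of the threshold, 32 newly past it and 1 lost (Pgm5 in LIP against EV under filterByExpr). Over all genes, the calls in LIP against EV went from 72 to 275 with DESeq2, 301 with the exact test, 29 with robust estimation, 36 with total counts, 4 with filterByExpr, 0 with 10 counts, 467 with the block and 157 with all 9 libraries, and to 22 to 367 without 1 library. In LAP against EV they went from 11 to 25, 33, 8, 13, 3, 0, 54 and 5 under the same settings, and to 6 to 62. In LIP against LAP they went from 190 to 216, 242, 55, 113, 2, 0, 1183 and 263, and to 7 to 448. Low counts limit what can be said of the 11 members under 3 CPM.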
